A study of Homo sapiens with 6 samples.

Results

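The 10 genes described here, HSPA1A, HSPA1B, HSPA8, HSPH1, HSP90AA1, DNAJB1, HSPB1, BAG3, HSPD1 and HSPE1, encode heat shock chaperones of the cytosol and the mitochondrial matrix together with the co-chaperone BAG3. They were chosen by name, with earlier results of these data known, among the 31762 genes of the deposited count table. Each symbol has 1 entry there, and all 10 passed the filter on low counts that left 15646 genes for testing. After fluoxetine the mitochondrial chaperonin gene HSPD1 changed by -21.3%, the cytosolic HSP90 gene HSP90AA1 by -16.5% and the HSP110 gene HSPH1 by -14.8%. The stress-inducible HSP70 genes HSPA1A and HSPA1B stood at nearly the same mean level in both groups. Their confidence intervals were wide, -21.0% to +25.4% and -21.5% to +26.7%, so a modest change in either direction is possible. Without control replicate 3 their log2 fold changes were -0.23 and -0.21, and without control replicate 1 they were 0.08 and 0.05. With all libraries included, no member rose, and none changed by 2-fold. Over all tested genes, 0.147% were lower and 1.25% higher by at least 2-fold with an adjusted p under 0.05.

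Chaperones bind unfolded or newly made proteins and help them reach or regain their shape. HSP70 proteins take up short exposed stretches of a client in a cycle driven by ATP, J-domain proteins such as DNAJB1 start that cycle, and HSP110 and BAG proteins end it by releasing the nucleotide. HSP90 acts later on kinases and steroid receptors, small heat shock proteins hold unfolded clients, and HSPD1 with its lid HSPE1 forms the folding chamber of mitochondria. Many of these genes are driven by heat shock factor 1 (HSF1), which binds heat shock elements in their promoters when unfolded proteins accumulate, although HSPA8, HSP90AA1 and HSPD1 are also made in large amounts without stress.

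H460 is a cell line from a human large cell lung carcinoma, and both groups held wild-type H460 cells (labelled WT) grown in RPMI-1640 with fetal bovine serum. A group of 3 control libraries was compared with 3 libraries of cells that received fluoxetine, a serotonin reuptake inhibitor used against depression, at 20 µM for 24 h. The comparison addresses how the transcriptome of this lung cancer line differs under the drug. A single cell line was used, and no label says that the libraries of a group came from separate cultures, so the p-values measure the spread between these libraries, which may be technical.

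The reads counted on genes lay between 19343565 and 27823667 in control libraries and between 16157507 and 17113538 in fluoxetine libraries. Levels are given in CPM, the counts divided by the library size after TMM normalization, with 3 counts being worth 0.108 to 0.182 CPM, and the normalization factors lay between 0.985 and 1.02. Of the epithelial markers, the keratin genes KRT8, KRT18 and KRT19 were abundant, whereas EPCAM had 4 to 11 counts and CDH1 0 to 1 count in a library, and of the 5 lung lineage markers none exceeded 9 counts. The summed epithelial markers lay between 3057 and 4027 CPM in control libraries and between 2689 and 3264 CPM in fluoxetine libraries. The summed fibroblast markers, mostly LUM and COL1A1, lay between 8.54 and 10.1 CPM and between 12.1 and 13.5 CPM. Of these only LUM was higher in every fluoxetine library, at 7.91 to 8.62 CPM against 3.91 to 5.15 CPM in controls. COL1A1 lay at 3.44 to 4.43 CPM against 3.21 to 5.35 CPM, and DCN and COL1A2 had at most 8 and 2 counts. Leukocyte markers, of which only CD14 was above a few counts, summed to at most 2.39 CPM and endothelial markers to at most 0.182 CPM. The part of these markers in the results was not tested, and in bulk RNA fewer cells of a type and less RNA per cell cannot be told apart.

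The heat shock elements upstream of the members are shown because they are what the set is known for. An element is built of GAA or TTC units at regular spacing. The 250 bases before each RefSeq transcription start (assembly GRCh38.p14) were searched on both strands for the 2-unit forms GAANNTTC and TTCNNGAA and for the 3-unit forms GAANNTTCNNGAA and TTCNNGAANNTTC, each of which contains a 2-unit form. All 10 members had at least 1 annotated start, HSP90AA1 and HSPD1 had 2 and DNAJB1 had 3. Below, each window of 30 bases is written 5′ to 3′ on the strand of the gene, with the matching letters in capitals and positions counted back from the start, which is start 2 for HSP90AA1, HSPD1 and DNAJB1.
HSPA1A, chr6:31815426-31815455, plus strand, -106 to -99: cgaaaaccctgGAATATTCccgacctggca
HSPA1B, chr6:31827622-31827651, plus strand, -105 to -98: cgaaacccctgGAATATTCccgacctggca
HSPA8, chr11:123062345-123062374, minus strand, -230 to -218: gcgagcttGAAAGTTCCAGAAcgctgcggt
HSPA8, chr11:123062170-123062199, minus strand, -55 to -43: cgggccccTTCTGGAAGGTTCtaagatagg
HSP90AA1, chr14:102087111-102087140, minus strand, -88 to -76: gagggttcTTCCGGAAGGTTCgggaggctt
HSP90AA1, chr14:102087094-102087123, minus strand, -68 to -61: gttcgggaggcTTCTGGAAaaagcgccgcg
DNAJB1, chr19:14518456-14518485, minus strand, -77 to -70: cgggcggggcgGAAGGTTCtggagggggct
DNAJB1, chr19:14518426-14518455, minus strand, -47 to -40: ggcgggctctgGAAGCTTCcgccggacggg
HSPB1, chr7:76302480-76302509, plus strand, -182 to -175: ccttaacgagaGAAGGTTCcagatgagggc
HSPD1, chr2:197500061-197500090, minus strand, -245 to -228: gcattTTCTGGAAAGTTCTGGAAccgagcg

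A form of 3 units was found before HSPA8 and before start 2 of HSP90AA1 and HSPD1, the last with an element running over 18 bases, and among all 35116 promoter windows of this length it occurred in 0.441%. Forms of 2 units alone were found before HSPA1A, HSPA1B, DNAJB1 and HSPB1, against 11.6% of all windows with at least a 2-unit form. The letters were not present in the windows of HSPH1, BAG3 and HSPE1, nor in those of start 1 of HSP90AA1 and HSPD1 and of starts 1 and 3 of DNAJB1, which says only that they are not in these 250 bases. HSPD1 and HSPE1 lie head to head on chromosome 2, with start 2 of HSPD1 539 bases from that of HSPE1, and the element lies between them, 294 to 311 bases before the start of HSPE1 and so outside its window. Start 1 of HSPD1 is nearer to HSPE1, and the element does not lie between these. Genes with and without a match are thus found among both the members that fell and those that did not pass the test, and a match is a description of the letters, not a bound site.

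The HSPA1B promoter is printed at greater length because HSPA1A and HSPA1B, neighbours in the major histocompatibility region of chromosome 6, are near copies of each other. Their 250-base windows were identical at 235 positions (94.0%). The stretch upstream of HSPA1B, chr6:31827488-31827734 on the plus strand, holds 1 2-unit element in capitals.
HSPA1B: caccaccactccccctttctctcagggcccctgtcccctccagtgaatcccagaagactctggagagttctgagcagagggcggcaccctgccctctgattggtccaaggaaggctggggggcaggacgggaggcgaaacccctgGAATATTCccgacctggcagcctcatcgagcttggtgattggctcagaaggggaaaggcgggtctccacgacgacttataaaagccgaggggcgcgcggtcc
The TATA box letters TATAAA were searched in the members only on the strand of the gene. There they stood at -29 to -24 in HSPA1B and at -30 to -25 in HSPA1A, and in no other member. The share of all windows with these letters, 10.7%, is for either strand and so for a wider search. The letters CCAAT, bound by the factor NF-Y, were found on one strand or the other before HSPA1A, HSPA1B, HSPA8, HSP90AA1 and DNAJB1, and in 32.0% of all windows.

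**Figure D1:**
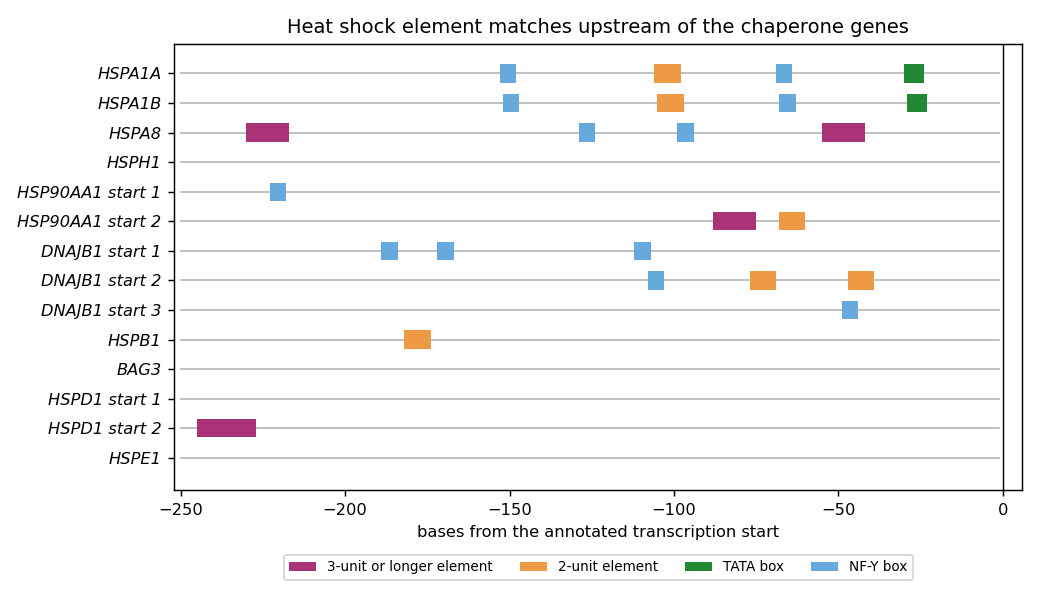
Positions of heat shock elements, TATA box letters (TATAAA) and NF-Y box letters (CCAAT) in the 250 bases before each annotated start of the 10 members. Elements of 3 or more units stand before HSPA8 and before start 2 of HSP90AA1 and HSPD1, and no element lies in the windows of HSPH1, BAG3 and HSPE1.

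The 10 members together took 1.28%, 1.24% and 1.29% of all counts in control libraries 1, 2 and 3 and 1.05%, 1.08% and 1.08% in fluoxetine libraries 1, 2 and 3. Every fluoxetine library gave the chaperones a smaller share than every control library, with means of 1.07% ± 0.0168 (SD, n = 3) and 1.27% ± 0.0257 (SD, n = 3). HSP90AA1, HSPA8 and HSPD1, which ranked 10, 20 and 26 among the tested genes by mean CPM, made up most of that share. By the quasi-likelihood test of edgeR, adjusted after Benjamini and Hochberg over all tested genes, 3 of the 10 members were lower at an adjusted p under 0.05, namely HSPD1, HSP90AA1 and HSPH1, where 5.32% of all tested genes were. Among the 2070 tested genes with a mean of at least 100 CPM, 17.4% were lower and 11.9% higher. No member was higher, where 7.76% of all genes were, and DESeq2 and limma-voom called none higher either. At an unadjusted p under 0.05 the test held 4 members, all of them lower, the added one being HSPA8. Over all 15646 tested genes, 4485 had such a p in either direction.

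All 10 fold changes were below 0, against 45.8% of tested genes, with a median log2 fold change of -0.23 beside 0.03 over all genes. Those of the near copies HSPA1A (-0.0070) and HSPA1B (-0.0038) were close to 0 and turned above 0 in some alternatives. The 45.8% covers genes of all levels, and no such share was taken for abundant genes alone. For 5 members all fluoxetine libraries lay below all controls, a pattern found in 14.4% of all tested genes, and for 0 members they lay above all controls, found in 17.5%. The count of 3 was 0 without fluoxetine replicate 1, 1 without control replicate 2 and 1 without fluoxetine replicate 3, and 5 without control replicate 3. The calls over all genes in either direction, 2047 with all libraries, moved as well, to 572, 919, 935 and 3633 in that order. Control replicate 3 held the lowest value of its group for 6 members, HSPA1A, HSPA1B, HSPA8, DNAJB1, HSPB1 and BAG3, and control replicate 1 the highest for 6. Fluoxetine replicate 3 likewise held the lowest value of its group for 6 members, HSPA1A, HSPA1B, DNAJB1, HSPB1, BAG3 and HSPE1.

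**Figure D2:**
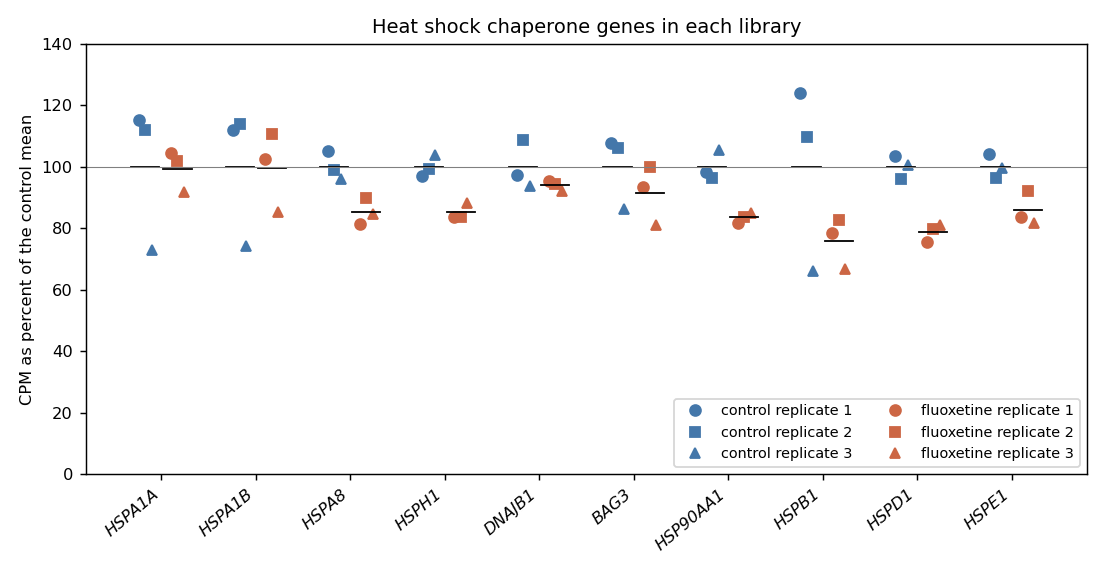
CPM of each member in each of the 6 libraries, as a percent of the mean of the 3 control libraries, with group means as black lines. All fluoxetine libraries lie under all control libraries for HSPA8, HSPH1, HSP90AA1, HSPD1 and HSPE1, and control replicate 3 is low for HSPA1A, HSPA1B and HSPB1.

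Compared per exonic kilobase in control cells, as RPKM, which is the CPM divided by the annotated exon length of a gene in kilobases, HSP90AA1 had the highest level of the 10, 1002 ± 48.1 (SD, n = 3). HSPA8 with 728.5 ± 33.8 and HSPD1 with 727.5 ± 27.2 RPKM followed and overlapped each other. A wide step then led to BAG3 at 53.0 ± 6.34, HSPH1 at 46.1 ± 1.63, HSPB1 at 42.1 ± 12.7, DNAJB1 at 39.9 ± 3.07, HSPA1A at 36.0 ± 8.49 and HSPA1B at 29.8 ± 6.66 RPKM. In this run of 6 genes the libraries of each overlapped those of the next, so neighbours in this order did not differ beyond their spread. Farther apart on this scale, BAG3 and HSPH1 lay wholly above DNAJB1, HSPA1A and HSPA1B, and DNAJB1 wholly above HSPA1B. The longest coding transcript has 2264 bases in DNAJB1, against 3672 exonic bases, and 2571 in BAG3, against 2747. The order of BAG3 and DNAJB1 therefore depends on the length used. HSPE1 lay apart from them at 8.22 ± 0.315 RPKM, far under its partner HSPD1, and its counts may be incomplete for the reasons given with it. Since all annotated exons enter the length, genes with many rarely used exons are set too low on this scale.

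**Figure D3:**
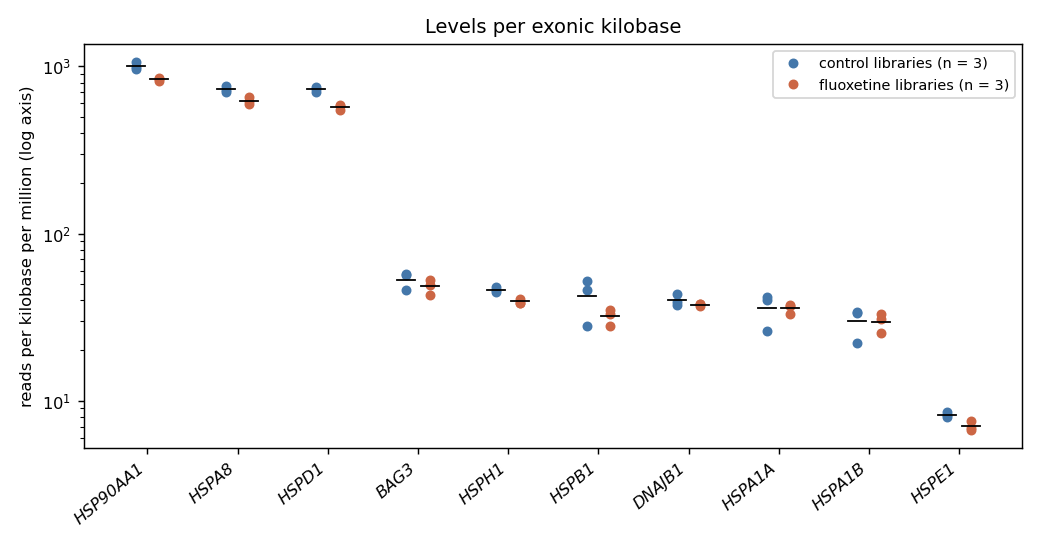
Level of each member per exonic kilobase (RPKM, log axis) in the 3 control and 3 fluoxetine libraries, ordered by the control mean, with group means as black lines. HSP90AA1, HSPA8 and HSPD1 lie far above the other 7, and HSPE1 lies lowest.

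HSPA1A (ENSG00000204389) on chromosome 6 from 31815464 to 31817946, plus strand, encodes the inducible HSP70 and is one of the genes that respond most to heat. It was measured at 102.9, 99.98 and 64.99 CPM in control libraries 1, 2 and 3, and at 93.3, 91.1 and 81.9 CPM in fluoxetine libraries 1, 2 and 3. The fluoxetine libraries all fell inside the range of the controls, of which replicate 3 was lowest of all 6 libraries. The means were 89.3 ± 21.1 CPM (SD, n = 3) and 88.7 ± 6.04 CPM (SD, n = 3), and the log2 fold change was -0.0070 (SE 0.15, adjusted p = 0.991). Its 95% interval, -21.0% to +25.4%, leaves room for a modest change in either direction.

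HSPA1B (ENSG00000204388), on chromosome 6 from 31827735 to 31830255, plus strand, encodes the same kind of HSP70. Control libraries 1, 2 and 3 gave 84.1, 85.7 and 55.9 CPM, and fluoxetine libraries 1, 2 and 3 gave 77.2, 83.3 and 64.3 CPM. As in HSPA1A, the groups overlapped and control replicate 3 was lowest. The means of 75.2 ± 16.8 CPM and 74.9 ± 9.70 CPM (SD, n = 3 each) differed by a log2 fold change of -0.0038 (SE 0.16, adjusted p = 0.991), with an interval of -21.5% to +26.7%.

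The values of these neighbours are not independent. Of the 150-base windows of the HSPA1A transcript, 67.1% also occur in HSPA1B, so a read from there could have come from either gene, and how such reads were counted is not given in the sources used here. HSPA1B had 0.785 to 0.914 counts for each count of HSPA1A, with both extremes among the fluoxetine libraries. Without control replicate 3 the log2 fold change of HSPA1A was -0.23 (adjusted p = 0.0714) and that of HSPA1B -0.21 (adjusted p = 0.160), while without control replicate 1 they were 0.08 and 0.05. The direction of both genes is therefore not settled by these libraries.

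HSPA8 (ENSG00000109971), on chromosome 11 from 123057489 to 123063230, minus strand, encodes the constitutive HSP70, HSC70, which also strips clathrin from vesicles and serves chaperone-mediated autophagy. Its level was 3713, 3491 and 3394 CPM in control libraries 1, 2 and 3 and 2872, 3174 and 2990 CPM in fluoxetine libraries 1, 2 and 3. Every fluoxetine library lay below every control library. The means were 3532 ± 163.8 CPM and 3012 ± 152.0 CPM (SD, n = 3 each), a log2 fold change of -0.23 (SE 0.07, adjusted p = 0.0648), or -14.7% with an interval of -23.8% to -4.54%. The gene did not pass the adjusted threshold here, but did so with DESeq2 (adjusted p = 0.0469) and with limma-voom (adjusted p = 0.0405). In edgeR it also passed without control replicate 3 (-0.29, adjusted p = 0.0169) or without fluoxetine replicate 2 (-0.30, adjusted p = 0.0273). These were 2 of the 6 fits that left out 1 library, and in the others the adjusted p reached 0.205. Not counting a 2-fold minimum, HSPA8 was called in 8 of 16 alternatives.

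HSPH1 (ENSG00000120694), on chromosome 13 from 31134974 to 31162388, minus strand, encodes HSP110, a nucleotide exchange factor of HSP70. The control libraries 1, 2 and 3 held 374.7, 384.2 and 401.6 CPM and the fluoxetine libraries 1, 2 and 3 held 323.7, 323.6 and 341.4 CPM. Each group was narrow and the groups did not overlap. HSPH1 fell from 386.8 ± 13.7 to 329.6 ± 10.2 CPM (SD, n = 3 each), a log2 fold change of -0.23 (SE 0.07, adjusted p = 0.0444). The call was lost without control replicate 2 (-0.28, adjusted p = 0.0817), fluoxetine replicate 1 (-0.25, adjusted p = 0.147), fluoxetine replicate 2 (-0.25, adjusted p = 0.0517) or fluoxetine replicate 3 (-0.28, adjusted p = 0.103), and with library size alone as the scaling (-0.21, adjusted p = 0.0592). In none of these was the drop of HSPH1 turned round, and with trends in GC content and length removed it was larger (-0.39, adjusted p = 0.00927).

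DNAJB1 (ENSG00000132002), on chromosome 19 from 14514770 to 14529770, minus strand, encodes HSP40, the inducible J-domain protein that works with HSPA1A. Its CPM were 142.7, 159.1 and 137.5 in control libraries 1, 2 and 3, and 139.7, 138.2 and 134.7 in fluoxetine libraries 1, 2 and 3. The groups overlapped, the fluoxetine libraries being close together at the low end of the controls. With means of 146.4 ± 11.3 and 137.5 ± 2.58 CPM (SD, n = 3 each), the log2 fold change was -0.09 (SE 0.08, adjusted p = 0.492), with an interval of -16.4% to +5.57%. Leaving out 1 library gave -0.07 to -0.17, the latter without control replicate 3 (adjusted p = 0.144). TECR, on the opposite strand, shares 5.75% of its exon bases.

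BAG3 (ENSG00000151929), on chromosome 10 from 119651370 to 119677819, plus strand, encodes a stress-inducible co-chaperone that links HSP70 clients and small heat shock proteins to selective autophagy. Levels of 156.7, 154.5 and 125.5 CPM were found in control libraries 1, 2 and 3, and of 135.8, 145.2 and 118.1 CPM in fluoxetine libraries 1, 2 and 3. Replicate 3 was lowest in each group, and the groups overlapped. BAG3 averaged 145.5 ± 17.4 CPM in control and 133.1 ± 13.8 CPM in fluoxetine libraries (SD, n = 3 each), a log2 fold change of -0.13 (SE 0.11, adjusted p = 0.475), with an interval of -22.2% to +7.48%. Without control replicate 3 it was -0.26 (adjusted p = 0.0563), without fluoxetine replicate 2 -0.23 (adjusted p = 0.186) and without fluoxetine replicate 3 -0.07 (adjusted p = 0.809).

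HSP90AA1 (ENSG00000080824), on chromosome 14 from 102080738 to 102139699, minus strand, encodes HSP90 alpha, the inducible of the pair of cytosolic HSP90 proteins. Control libraries 1, 2 and 3 had 5173, 5064 and 5546 CPM, and fluoxetine libraries 1, 2 and 3 had 4299, 4409 and 4475 CPM. All 3 fluoxetine libraries lay well below the lowest control. HSP90AA1 fell from 5261 ± 252.7 to 4395 ± 88.7 CPM (SD, n = 3 each), a log2 fold change of -0.26 (SE 0.07, adjusted p = 0.0372), or -16.5% with an interval of -25.1% to -6.86%. Leaving out control replicate 2 (-0.33, adjusted p = 0.0512), fluoxetine replicate 1 (-0.27, adjusted p = 0.120) or fluoxetine replicate 3 (-0.30, adjusted p = 0.118) ended the call, with a fold change no smaller than in all libraries.

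HSPB1 (ENSG00000106211), on chromosome 7 from 76302544 to 76304295, plus strand, encodes HSP27, a small heat shock protein that holds unfolded proteins and binds actin. Its values were 85.4, 75.5 and 45.4 CPM in control libraries 1, 2 and 3 and 53.9, 56.7 and 45.8 CPM in fluoxetine libraries 1, 2 and 3. Control replicate 3 was the lowest library of all 6, next to fluoxetine replicate 3, and apart from it the controls lay above the fluoxetine libraries. The means of HSPB1 were 68.7 ± 20.8 and 52.1 ± 5.70 CPM (SD, n = 3 each), with a log2 fold change of -0.40 (SE 0.19, adjusted p = 0.208), the widest error of the 10. Leaving out control replicate 3 gave -0.66 (adjusted p = 0.00118) and leaving out control replicate 1 gave -0.24 (adjusted p = 0.493). With all libraries but no filter on low counts HSPB1 was also called (-0.43, adjusted p = 0.000902).

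HSPD1 (ENSG00000144381), on chromosome 2 from 197486581 to 197516737, minus strand, encodes HSP60, the barrel of the mitochondrial chaperonin. It gave 3195, 2966 and 3104 CPM in control libraries 1, 2 and 3 and 2329, 2463 and 2503 CPM in fluoxetine libraries 1, 2 and 3. The gap between the groups was wider than the spread within either. HSPD1 fell from 3088 ± 115.5 to 2431 ± 91.3 CPM (SD, n = 3 each), with a log2 fold change of -0.34 (SE 0.07, adjusted p = 0.0107), or -21.3% with an interval of -29.3% to -12.4%. This was the smallest adjusted p of the 10. Not counting the 2-fold minimum, under which HSPD1 was not called, it passed the threshold in 15 of 16 alternatives. The exception was without fluoxetine replicate 1 (-0.34, adjusted p = 0.0559). GENCODE release 29 lists 17 pseudogenes of HSPD1, and the 10 with an entry in the table held 0.677% as many counts as the gene itself.

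HSPE1 (ENSG00000115541), on chromosome 2 from 197499994 to 197503457, plus strand, encodes HSP10, the lid of the same chaperonin. Counts were 373, 301 and 449 in control libraries 1, 2 and 3 and 224, 252 and 228 in fluoxetine libraries 1, 2 and 3, equal to 16.9, 15.7 and 16.2 CPM and to 13.6, 15.0 and 13.3 CPM. Every fluoxetine library was below every control library, as for its partner. The means of 16.3 ± 0.623 and 14.0 ± 0.910 CPM (SD, n = 3 each) gave a log2 fold change of -0.22 (SE 0.11, adjusted p = 0.208), with an interval of -27.2% to +1.22%. HSPE1 shares 23.9% of its exon bases with other genes, 281 of them with HSPD1 on the opposite strand and 192 with the readthrough gene HSPE1-MOB4, not analysed here, and 14.7% of its 150-base windows occur in other genes. Its 11 pseudogenes with an entry held 8.48% as many counts as HSPE1, so its level and change are uncertain.

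**Figure D4:**
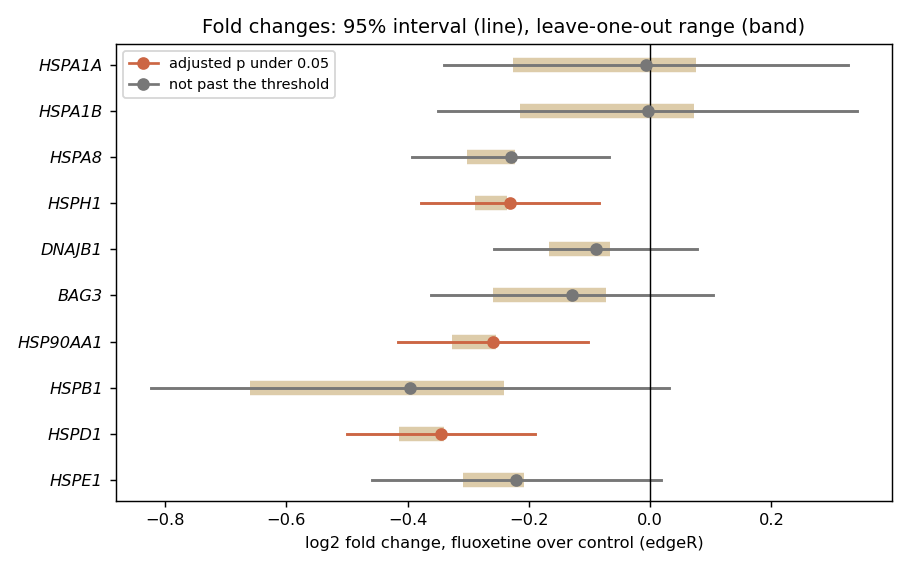
Log2 fold change of each member, fluoxetine over control, from edgeR, with its 95% interval as a line and the range over fits that leave out 1 library as a band. HSPH1, HSP90AA1 and HSPD1 pass an adjusted p under 0.05, and the bands of HSPA1A and HSPA1B cross 0.

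The other genes of the chaperone machinery were taken from 7 lists written from general knowledge, but with earlier results of these data known. From these lists 83 genes were tested. Of these 83 genes, 25 were lower and 4 higher at an adjusted p under 0.05, beside 5.32% and 7.76% of all tested genes and 17.4% and 11.9% of those with at least 100 CPM. The median log2 fold change was -0.21, and 62 lay below 0. The list of HSP90 with its co-chaperones and that of the cytosolic chaperonin TRiC with prefoldin held 18 of the 25 lower genes. Without fluoxetine replicate 1 the 25 became 7, without fluoxetine replicate 3 12, without control replicate 1 or 2 16, and without control replicate 3 41. Over all genes, the 2047 calls in either direction became 572, 935, 1191 or 919, and 3633 in that order.

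HSP90 and its co-chaperones, the partners of HSP90AA1, gave 8 lower and 0 higher of 13 tested, with a median of -0.30 and 12 below 0. The other cytosolic HSP90 gene, HSP90AB1, fell from 4888 to 3831 CPM (log2 fold change -0.35, adjusted p = 0.0113). FKBP4, an immunophilin of steroid receptor complexes, fell from 189.7 to 126.2 CPM (-0.59, adjusted p = 0.00155), and AHSA1, which speeds the ATPase of HSP90, from 331.6 to 245.8 CPM (-0.43, adjusted p = 0.00638). STIP1, the adaptor that passes clients from HSP70 to HSP90, fell from 560.0 to 445.0 CPM (-0.33, adjusted p = 0.0110). The 8 became 2 without fluoxetine replicate 1, 4 without fluoxetine replicate 3 and 5 without control replicate 1 or 2.

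TRiC is the ring-shaped chaperonin that folds actin and tubulin, and prefoldin hands it clients. Of the 14 genes tested 10 were lower and 0 higher, and all 14 lay below 0, with a median of -0.31. All 8 TRiC subunit genes were among the 10, including CCT6A from 285.8 to 221.3 CPM (-0.37, adjusted p = 0.00615), CCT5 from 856.0 to 670.8 CPM (-0.35, adjusted p = 0.00904) and TCP1 from 601.5 to 476.9 CPM (-0.34, adjusted p = 0.00986). VBP1, a prefoldin subunit, fell from 200.6 to 161.5 CPM (-0.31, adjusted p = 0.0149). The number of TRiC genes called was 1 without fluoxetine replicate 1, 3 without fluoxetine replicate 3 and 5 without control replicate 1 or 2.

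Partners of HSP70 did not share a direction. In the list of HSP70 relatives, BAG proteins and other cofactors, edgeR called 0 of 16, as did DESeq2 and limma-voom. An unadjusted p under 0.05 was held by 5, beside 4485 of all 15646 tested genes, and the median was -0.04. The most abundant were HSPA4, an HSP110 relative of HSPH1, at 570.6 and 553.6 CPM (-0.04, adjusted p = 0.686), and ST13, which slows nucleotide release, at 344.1 and 358.4 CPM (0.06, adjusted p = 0.601). HSPA6, an HSP70 gene that is nearly silent without stress and was picked out after its values were seen, had means of 2.09 and 1.21 CPM (-0.77, adjusted p = 0.0853). Among 13 cytosolic J-domain genes, the family of DNAJB1, 3 were lower and 2 higher. DNAJA1 fell from 420.1 to 317.7 CPM (-0.40, adjusted p = 0.00343) and DNAJC2, which works on the ribosome, from 123.7 to 91.7 CPM (-0.43, adjusted p = 0.00504). DNAJC6, the auxilin that serves HSC70 in uncoating clathrin, rose from 52.9 to 74.7 CPM (0.50, adjusted p = 0.0224), and DNAJC13, an endosomal protein, from 68.6 to 91.8 CPM (0.42, adjusted p = 0.0394). Both rises were lost without control replicate 1 or 2 or fluoxetine replicate 1 or 3, and that of DNAJC13 also in thinned libraries (adjusted p = 0.0608).

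The mitochondrial chaperones and proteases, the neighbours of HSPD1 and HSPE1 in the organelle, gave 3 lower and 0 higher of 15, with 13 below 0 and a median of -0.10. GRPEL1, a nucleotide exchange factor of the mitochondrial HSP70, fell from 51.1 to 34.5 CPM (-0.57, adjusted p = 0.00400). TRAP1, the mitochondrial HSP90, fell from 176.7 to 150.2 CPM (-0.23, adjusted p = 0.0443), and HSPA9, the mitochondrial HSP70 itself, from 1429 to 1224 CPM (-0.22, adjusted p = 0.0492). Without control replicate 1 or 2 or fluoxetine replicate 1 or 3 only GRPEL1 of these 3 was called. TRAP1 was also lost with library size only (adjusted p = 0.0534) and HSPA9 with at least 10 counts required in every library (adjusted p = 0.0509), and the list gave 7 without control replicate 3.

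The list called other small heat shock proteins had 7 of 9 genes in the table and 4 tested. CRYAB, alpha B-crystallin, rose from 10.9 to 18.5 CPM (0.77, adjusted p = 0.00377), and HSPB11, whose protein also serves in transport within cilia, fell from 27.4 to 19.5 CPM (-0.49, adjusted p = 0.0110), a call lost without fluoxetine replicate 1 (adjusted p = 0.0675). Of 8 heat shock factors and regulators, 1 was higher and 0 were lower. An unadjusted p under 0.05 was held by 4 of them, beside 4485 of all 15646 tested genes. HSF1 itself stood at 48.0 and 45.8 CPM (-0.07, adjusted p = 0.812), and HSF4, a factor best known from the lens, rose from 13.3 to 20.8 CPM (0.64, adjusted p = 0.00814). HSF4 was not called without control replicate 2 (adjusted p = 0.0550) or fluoxetine replicate 1 (adjusted p = 0.0757). Transcript levels of HSF1 do not measure its activity, which is set largely on the protein.

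Endoplasmic reticulum chaperones, which are controlled mainly by the unfolded protein response, are set beside these as the most similar group outside the cytosol and mitochondria. Of 16 tested, 0 were lower and 2 higher, 3 lay below 0, and the median was 0.09. An unadjusted p under 0.05 was held by 6, beside 4485 of all 15646 tested genes. DNAJB9, a J-domain protein of that compartment, rose from 8.80 to 14.6 CPM (0.74, adjusted p = 0.00363), and the lectin chaperone CANX from 2129 to 2601 CPM (0.29, adjusted p = 0.0412). The call of CANX was lost without control replicate 1 or 2 or fluoxetine replicate 1 or 3, where its adjusted p lay between 0.163 and 0.248, and with RLE factors (adjusted p = 0.0611) or thinned libraries (adjusted p = 0.0570). DESeq2 and limma-voom also called none lower. The difference between this group and the 10 members was not tested.

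**Figure D5:**
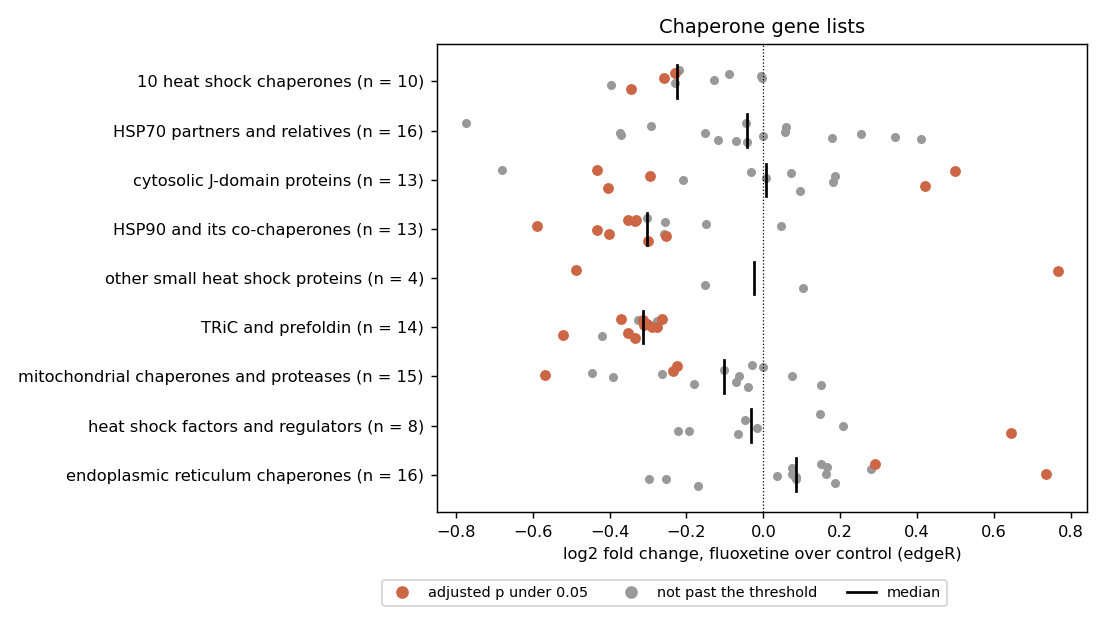
Log2 fold change, fluoxetine over control, of each tested gene of the 10 members, the 7 other chaperone lists and the endoplasmic reticulum chaperones, with the median of each list as a black line and vertical position within a list random. TRiC and prefoldin lie wholly below 0 with a median of -0.31, and the endoplasmic reticulum chaperones have a median of 0.09.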

How the data were processed

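RNA sequencing libraries of 3 control and 3 fluoxetine samples were grouped by the deposited treatment labels. The authors deposited raw read counts per gene, not normalized or pooled. The same table holds the authors' own log2 fold changes, p-values and adjusted p-values, which were not used. The submitters' processing notes name fastp 0.20.0, HISAT2 2.1.0, HTSeq 0.10.0 and DESeq2 1.18.1. Genome build and strand setting of the counting are not given in the sources used here. Gene starts and ends equalled those of GENCODE 29 (GRCh38) for all 10 members.

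Differences were tested with edgeR 4.0.16 in R 4.3.3 (quasi-likelihood test, TMM, filterByExpr, no covariate, 15646 genes, Benjamini-Hochberg adjustment, threshold 0.05). Intervals use edgeR's degrees of freedom. The fit was tested on simulated data. Alternatives were DESeq2 1.42.0, limma-voom (limma 3.58.1), other scalings and filters, thinning, summing HSPA1A with HSPA1B, a replicate block, a 2-fold minimum and leaving out each library. Removing trends with GC content and length, known for 15600 genes, was added after the data were seen.

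Members and lists were chosen with earlier results of these data known. Named were all members, HSF1, up to 4 called genes of each list by smallest p and, in lists with fewer than 2 calls, also the most abundant genes, up to 2. Genes overlapping or copying a member were added where they bear on it. Of the genes this rule names, 1 is not reported here. Replicate counts differed beyond sampling noise (chi-square per degree of freedom 3.69 to 25.2). The square root of the common dispersion was 0.107.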

Additional observations from a re-analysis of the deposited data

How the results depend on the processing

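No alternative called a member higher or turned the direction of the 8 members other than HSPA1A and HSPA1B. The 3 lower members became 5 with no filter on low counts, 5 once trends with GC content and length were removed and 0 with a 2-fold minimum. They numbered 0 to 5 when 1 library was left out, and 2 to 4 under the other alternatives except the replicate block. With the replicate number as a block 5 members were lower, as were 38 of the other 83 chaperone genes. Calls over all genes in either direction then rose as well, from 2047 to 4018, and with the trends removed to 3027. The correlations of same-numbered libraries were -0.09, 0.30 and 0.64 and control replicate 1 correlated best with fluoxetine replicate 2, so the numbers were not taken as a pairing. Of those 83 genes, 25 were lower and 4 higher. Leaving out 1 library gave 7 to 41 lower and 1 to 4 higher, a 2-fold minimum 0 and 0, and removing the trends 9 higher. The log2 fold change of HSPA1A turned to 0.0282 with limma-voom, 0.0163 with library size only, 0.0176 with the block and 0.0128 with the trends removed, and that of HSPA1B to 0.0225, 0.0188 and 0.0112 under the first 3. Leaving out 1 library gave -0.23 to 0.0755 for HSPA1A and -0.21 to 0.0723 for HSPA1B, above 0 without control replicate 1, control replicate 2 or fluoxetine replicate 3. The cause of these shifts was not tested. Fits without 1 library also have fewer libraries for the test, and over all genes they called 572 to 3633, beside 2047 with all libraries. Of 16 alternatives, not counting the 2-fold minimum, HSPD1 was called in 15, HSP90AA1 in 13, HSPH1 in 11, HSPA8 in 8, HSPB1 in 3 and HSPE1 in 1. The lowest count of a member was 224, for HSPE1, the one most limited by depth.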
